A study of Homo sapiens with 6 samples.

Results

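The genes described here are the protein-coding members of the 4 human HOX clusters, HOXA, HOXB, HOXC and HOXD. They were chosen by symbol alone, as HOX followed by a cluster letter and a number from 1 to 13, without antisense genes. This rule found 39 genes among the 64253 genes of each count table, with 11 in HOXA, 10 in HOXB, 9 in HOXC and 9 in HOXD. The study measured RNA in PC-3, an established human prostate cancer cell line derived from a bone metastasis. Cells carried an shRNA against CdGAP (labelled shCDGAP, here shCdGAP, 3 samples) or a control shRNA (labelled shCONTROL, here shCon, 3 samples), and CdGAP, encoded by ARHGAP31, is a GTPase-activating protein for Rac1 and Cdc42. The shRNA against CdGAP was delivered by lentivirus with puromycin selection, the methods do not state that selection for the control cells, and the labels give no other treatment. The methods derive the shCdGAP PC-3 cells from single-cell clones and do not say so of the control cells, so an effect of CdGAP depletion and a difference between a clone and its parent population cannot be told apart here.

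HOX genes encode homeodomain transcription factors that give cells a position along the body axis. Within each cluster the genes lie in the order in which they are used, so that low-numbered genes at the 3′ end act towards the head and high-numbered genes at the 5′ end act towards the tail. Genes of the same number in different clusters are paralogs. Clusters are kept silent by Polycomb proteins and kept active by Trithorax proteins, and retinoic acid opens them from the 3′ end. The prostate arises from the urogenital sinus, where the posterior genes of group 13 are used, and HOXB13 is a lasting marker of prostate epithelium.

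The 6 libraries held between 33182796 and 43154039 counted reads. ARHGAP31 stood at 59.2 ± 1.22 CPM (reads per 1000000 counted reads; SD, n = 3) in shCon libraries against 26.8 ± 0.351 CPM in shCdGAP libraries. The epithelial markers KRT8, KRT18, KRT19, EPCAM and CDH1 each had over 10 reads in every library. Of prostate lineage markers, HOXB13 and FOXA1 did so, whereas KLK3 and KLK2 had no reads. Among the 16439 genes with enough reads to be tested, edgeR's quasi-likelihood test found 7587 at an adjusted p under 0.01, so differences between these groups were common in general.

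The HOX program of PC-3 cells was posterior, and 5 genes made up most of it. HOXB13 was the most abundant per length, at 88.2 ± 1.35 RPKM (CPM per kilobase of the deposited gene length; SD, n = 3) in shCon cells and 83.6 ± 12.2 RPKM in shCdGAP cells. By library its RPKM was 89.8, 87.8 and 87.2 in shCon replicates 1, 2 and 3 and 76.9, 97.7 and 76.3 in shCdGAP replicates 1, 2 and 3. The shCdGAP libraries thus lay on both sides of the shCon libraries, with replicate 2 above them. HOXB13 alone accounted for 52.9% ± 1.03 of the summed RPKM of all 39 genes in shCon cells and for 56.2% ± 2.5 in shCdGAP cells. HOXA13, a regulator of the distal limb and the urogenital tract, came next, at 23.6 ± 0.771 RPKM in shCon cells. HOXA9, a regulator of blood stem cells that is also active in leukemia, followed at 16.4 RPKM. HOXA11 and HOXA10, both needed for the uterus and vas deferens, stood at 13.5 and 13.2 RPKM and overlapped between shCon libraries, so their order was not resolved there.

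The 16 posterior genes of groups 9 to 13 together held 94.4% ± 0.411 of the summed HOX RPKM in shCon cells and 96.6% ± 0.409 in shCdGAP cells. In shCon cells the 15 central genes of groups 4 to 8 held 3.67% ± 0.335, and the 8 anterior genes of groups 1 to 3 held 1.94% ± 0.0874. By cluster, HOXB held 55.2% and HOXA 43.7% of the shCon sum. HOXD held 0.797% and HOXC 0.268%, so the latter 2 clusters were close to silent. HOXB1, HOXC5, HOXC12 and HOXD9 had no reads in any library, and 9 further genes never exceeded 5 reads. A count of 0 allows up to 3 reads, which is 0.0688 to 0.0907 CPM in these libraries by counting error alone.

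**Figure D1:**
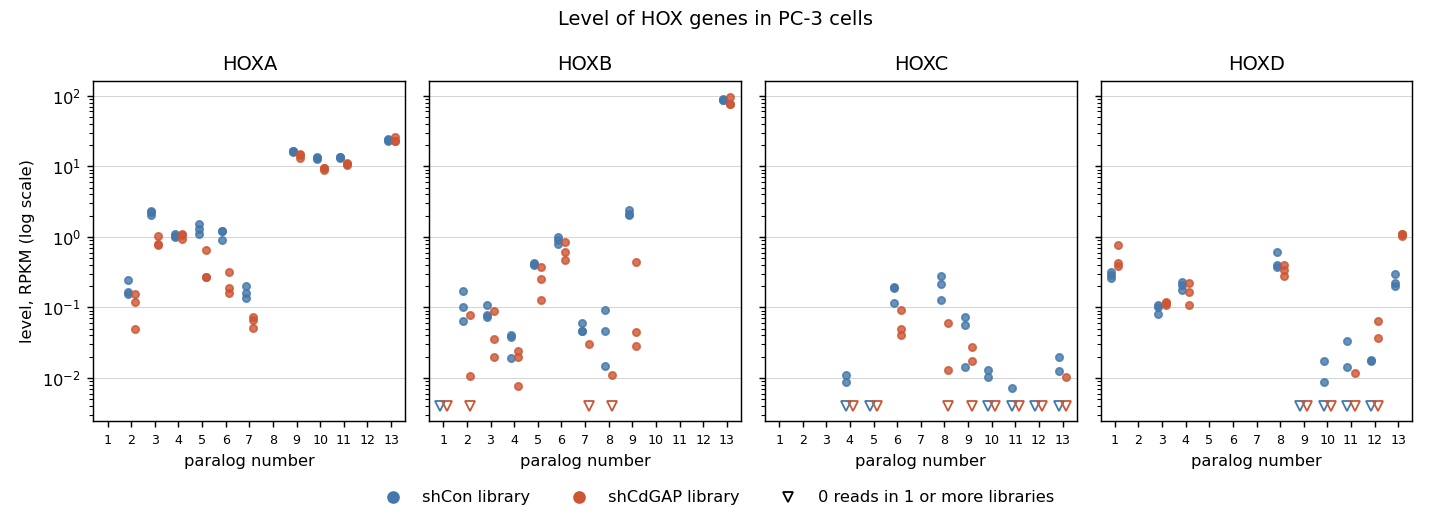
Level of HOX genes in RPKM (log axis) against its paralog number, in 1 panel per cluster. Each point is a library, blue for shCon and red for shCdGAP, and an open triangle marks a gene with 0 reads in at least 1 library of that group. HOXB13 stands at the top, the HOXA genes of groups 9 to 13 follow, and all HOXC genes lie under 0.3 RPKM.

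Below the leading 5 genes the order changed between the groups. In shCon cells HOXA3 ranked 6th at 2.21 RPKM and HOXB9 ranked 7th at 2.16 RPKM, with overlapping libraries. They were followed by HOXA5 at 1.31 RPKM, HOXA6 at rank 9, HOXA4 at 1.05 RPKM and HOXB6 at 0.898 RPKM. In shCdGAP cells HOXB9 stood at rank 16 and HOXA6 at rank 14, while HOXD13 moved from rank 16 to rank 6. Neighbours from HOXD1 at 0.408 RPKM (mean of both groups) down to HOXC8 overlapped in shCdGAP cells, and their order there was not resolved.

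Compared with control cells, CdGAP-depleted cells had lower levels of 9 HOX genes and a higher level of 1, by edgeR's quasi-likelihood test at an adjusted p under 0.01. HOXA3, HOXA5, HOXA6, HOXA7, HOXA9, HOXA10, HOXA11, HOXB9 and HOXC6 were lower, and HOXD13 was higher. These 10 genes were 45.5% of the 22 HOX genes with enough reads to be tested, and among all tested genes the share past the same threshold was 46.2%, which is close to the share in HOX genes. Among all tested genes, 22.0% were lower and 24.1% higher. With the further limit of an absolute log2 fold change above 1, 6 HOX genes were lower and 1 was higher, against 12.8% of all tested genes in either direction, 4.19% lower and 8.56% higher. The median log2 fold change was -0.44 over the 22 HOX genes and 0.01 over all tested genes. Of the 22, 18 had a fitted value below 0.

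In 15 of the 22 tested HOX genes the 3 shCdGAP libraries lay wholly on 1 side of the 3 shCon libraries in CPM, 12 of them lower. Over all tested genes this share was 67.1%, with 32.7% lower. The expression filter kept genes with about 10 reads in at least 3 libraries, and 7 of the 22 passed it with more shCon than shCdGAP libraries over that limit, so a low shCdGAP level could not remove them. Among the other 15, all over the limit in every library, 5 were lower, 1 was higher and 9 did not pass the test. With 3 libraries a group an exact permutation test cannot fall below a two-sided p of 0.1, so levels and shares were not tested on their own. The number of lower HOX genes ran from 5 without shCon replicate 2 to 14 without shCdGAP replicate 2.

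**Figure D2:**
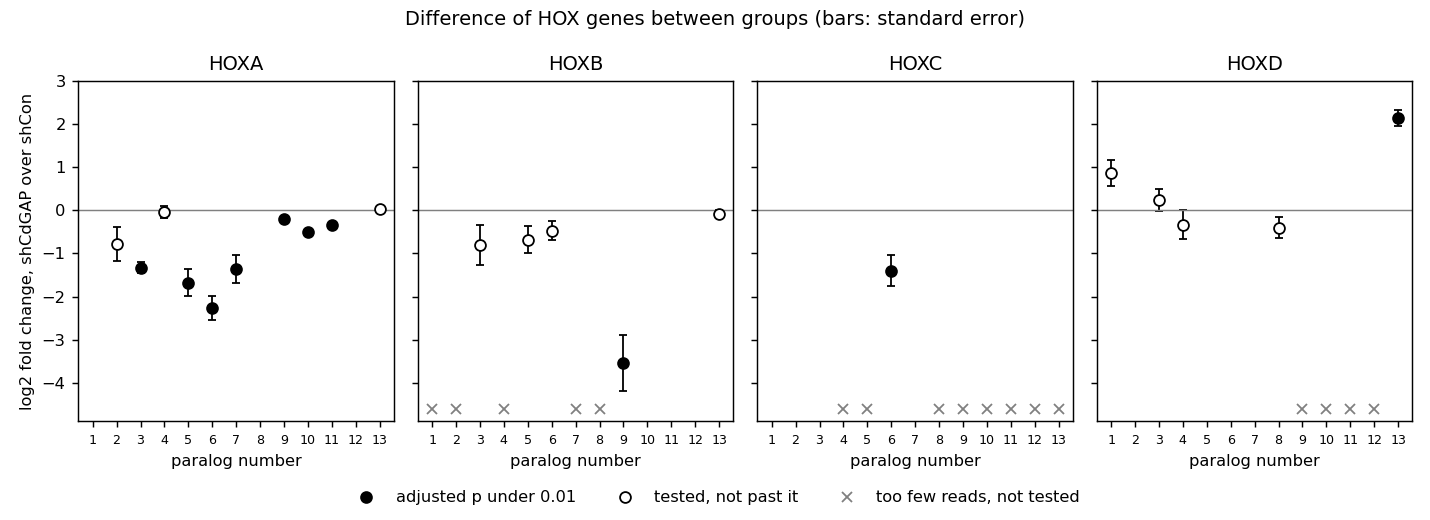
Log2 fold change of HOX genes, shCdGAP over shCon, against its paralog number in the 4 clusters, with the standard error as bar. Filled points passed an adjusted p under 0.01, open points did not, and crosses had too few reads to be tested. The filled points are below 0 except HOXD13, at 2.14.

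Promoters of 3 genes are shown because their outcomes differed: HOXD13 was the gene that rose, HOXA6 had the largest decrease in the HOXA cluster, and HOXA13, the most abundant HOXA gene, did not pass the test. The sequences are the 250 bases before the RefSeq start on GRCh38.p14, written 5′ to 3′ on the gene's strand. They lie at chr2:176092471-176092720 on the plus strand for HOXD13, chr7:27147775-27148024 on the minus strand for HOXA6 and chr7:27200092-27200341 on the minus strand for HOXA13. Capitals mark matches on either strand to TATAAA (the TATA box), CCAAT (the CCAAT box), GGGCGG (the GC box), TGATTNAT (a joint HOX and PBX site) and AGGTCA (a retinoid receptor site).
HOXD13: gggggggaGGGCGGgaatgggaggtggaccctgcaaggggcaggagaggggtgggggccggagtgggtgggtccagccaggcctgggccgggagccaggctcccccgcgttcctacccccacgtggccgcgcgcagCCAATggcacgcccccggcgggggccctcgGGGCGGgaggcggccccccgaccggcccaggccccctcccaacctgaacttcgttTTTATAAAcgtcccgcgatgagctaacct
HOXA6: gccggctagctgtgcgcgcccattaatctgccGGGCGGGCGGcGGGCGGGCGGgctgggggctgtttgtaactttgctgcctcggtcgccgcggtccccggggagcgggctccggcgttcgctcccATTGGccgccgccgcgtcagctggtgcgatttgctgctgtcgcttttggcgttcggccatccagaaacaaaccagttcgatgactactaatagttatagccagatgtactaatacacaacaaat
HOXA13: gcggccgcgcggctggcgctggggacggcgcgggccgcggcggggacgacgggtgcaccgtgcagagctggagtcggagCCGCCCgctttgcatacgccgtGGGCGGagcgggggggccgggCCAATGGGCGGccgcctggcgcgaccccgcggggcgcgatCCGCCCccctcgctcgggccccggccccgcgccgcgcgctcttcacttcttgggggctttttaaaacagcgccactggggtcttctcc
The HOXD13 promoter held TATAAA on both strands in overlapping letters near its 3′ end, besides 1 CCAAT and 2 GGGCGG matches. Neither of the HOXA6 and HOXA13 windows held TATAAA, and each held 1 CCAAT and 4 GGGCGG matches, some of them overlapping. Across the RefSeq table, 10.7% of 35116 promoters of the same length held TATAAA, 32.0% held CCAAT and 42.6% held GGGCGG. Among 27 promoters of 20 HOX genes in that table, 5 held TATAAA, 18 held CCAAT and 13 held GGGCGG. The HOX entries were not all separate. HOXC4 and HOXC5 had the same window, counted for each, and HOXA3 and HOXA10 had several entries. TGATTNAT was in 2 HOX promoters and in 2.48% of all promoters, and AGGTCA was in none of the HOX promoters and in 12.1% of all. CG pairs numbered 21 in the HOXD13 window, 27 in HOXA6 and 40 in HOXA13, against a median of 19 over HOX promoters and 11 over all promoters. HOXB9, HOXB13 and HOXA5 had no entry.

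The HOXA cluster (chromosome 7, GRCh38) was the only one in which all genes had enough reads. Of its 11 genes, 7 (63.6%) fell in CdGAP-depleted cells, beside 22.0% of all tested genes. Fitted differences in this cluster were larger in a stretch from HOXA3 to HOXA7, HOXA4 excepted, than in the abundant genes at the 5′ end. HOXA3, which patterns the thymus and parathyroid, had 8.74, 9.78 and 10 CPM in shCon replicates 1, 2 and 3 and 3.45, 4.50 and 3.31 CPM in the shCdGAP replicates. All shCdGAP values were below all shCon values, and the log2 fold change was -1.33 (SE 0.128, adjusted p = 2.74e-05), 2.52-fold lower. HOXA5, which is required for lung and airway formation, had 93, 79 and 87 reads in shCon libraries and 19, 48 and 16 reads in shCdGAP libraries. Its shCdGAP replicate 2 stood at 49.2% of the shCon mean and the other two at 20.9% and 20.8%. The log2 fold change of HOXA5 was -1.68 (SE 0.313, adjusted p = 0.00166).

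HOXA6 and HOXA7, neighbours that help pattern the thoracic skeleton, were low in both groups. HOXA6 had 49, 65 and 52 reads in shCon libraries and 10, 18 and 7 reads in shCdGAP libraries. Its log2 fold change of -2.26 (SE 0.275, adjusted p = 0.000118) was the largest decrease in the cluster, 4.80-fold. HOXA7 had 16, 14 and 16 reads in shCon libraries and 5, 7 and 6 reads in shCdGAP libraries, with a log2 fold change of -1.36 (SE 0.322, adjusted p = 0.00577). None of its shCdGAP libraries reached the read limit of the filter, and it passed that filter through the shCon libraries alone. HOXA7 lost its call in 7 of 11 alternatives, with adjusted p up to 0.0452, and of the fits without 1 library it passed only in that without shCdGAP replicate 2 (adjusted p = 0.00724). Antisense RNAs overlap 39.3% of the exonic bases of HOXA6 and 62.5% of those of HOXA7. Counting was by strand, and the partner of both, HOXA-AS3, had 8, 9 and 5 reads in shCon libraries against 0, 1 and 0 in shCdGAP libraries.

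HOXA4, within the same stretch, did not pass the test. It had 1.76, 1.82 and 1.94 CPM in shCon libraries and 1.90, 1.86 and 1.63 CPM in shCdGAP libraries, and the groups overlapped (log2 fold change -0.03, SE 0.139, adjusted p = 0.90). Another gene of the same strand shares 31.0% of the exonic bases of HOXA4, where reads were left uncounted. HOXA2, an anterior gene that patterns the hindbrain, had 16 to 20 reads in shCon libraries and 5 to 13 reads in shCdGAP libraries. Its log2 fold change of -0.79 did not pass the test (adjusted p = 0.114).

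At the 5′ end of HOXA the abundant genes showed small decreases with small errors. HOXA10 had 47.6, 49.4 and 49.5 CPM in shCon libraries and 35.5, 33.3 and 34.9 CPM in shCdGAP libraries, a decrease to 68.3% to 72.6% of the shCon mean. The log2 fold change was -0.50 (SE 0.0442, adjusted p = 1.68e-05). HOXA11 had 31.4, 30.4 and 31.8 CPM in shCon libraries and 25.1, 25.4 and 24.2 CPM in shCdGAP libraries, with a log2 fold change of -0.33 (SE 0.0470, adjusted p = 0.000336). HOXA9 had 49.2, 48.6 and 50.8 CPM in shCon libraries and 43.3, 39.9 and 45.6 CPM in shCdGAP libraries. Its groups did not overlap, but the difference was small (log2 fold change -0.21, SE 0.0541, adjusted p = 0.00929), and it lost its call in 6 of 12 alternatives, with adjusted p between 0.0202 and 0.0342 when shCdGAP replicate 1 or any 1 shCon replicate was left out. HOXA13 had 109, 107 and 114 CPM in shCon libraries and 107, 123 and 105 CPM in shCdGAP libraries. The groups overlapped, and the log2 fold change was 0.02 (SE 0.0612, adjusted p = 0.777), with a sign that turned in 2 of 12 alternatives.

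Summed per length, HOXA9 to HOXA13 had 66.7 ± 1.5 RPKM in shCon cells and 58.2 ± 1.13 RPKM in shCdGAP cells, and each shCdGAP library was below every shCon library.

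Between the HOXA genes lie non-coding RNAs transcribed from the opposite strand. HOXA-AS2, which overlaps HOXA3 and HOXA4, had 54, 63 and 52 reads in shCon libraries and 15, 32 and 19 reads in shCdGAP libraries, a log2 fold change of -1.38 (SE 0.245, adjusted p = 0.00118). HOXA-AS3 had too few reads to be tested, with 22 reads over shCon libraries and 1 over shCdGAP libraries, a scaled ratio of 22.2 with an exact 95% interval from 3.59 to 918 for counting error only. HOTAIRM1 at the 3′ end, HOXA10-AS and HOXA11-AS among the posterior genes and HOTTIP beyond HOXA13 did not pass the test, with log2 fold changes of -0.09, -0.09, 0.04 and -0.03. HOXA10-AS was the most abundant of the non-coding RNAs, at 6.78 RPKM in shCon cells and 6.36 RPKM in shCdGAP cells. HOXA-AS2 and the HOXA genes that fell by more than 2-fold thus lay in 1 segment of the cluster, in which HOXA4 did not pass.

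**Figure D3:**
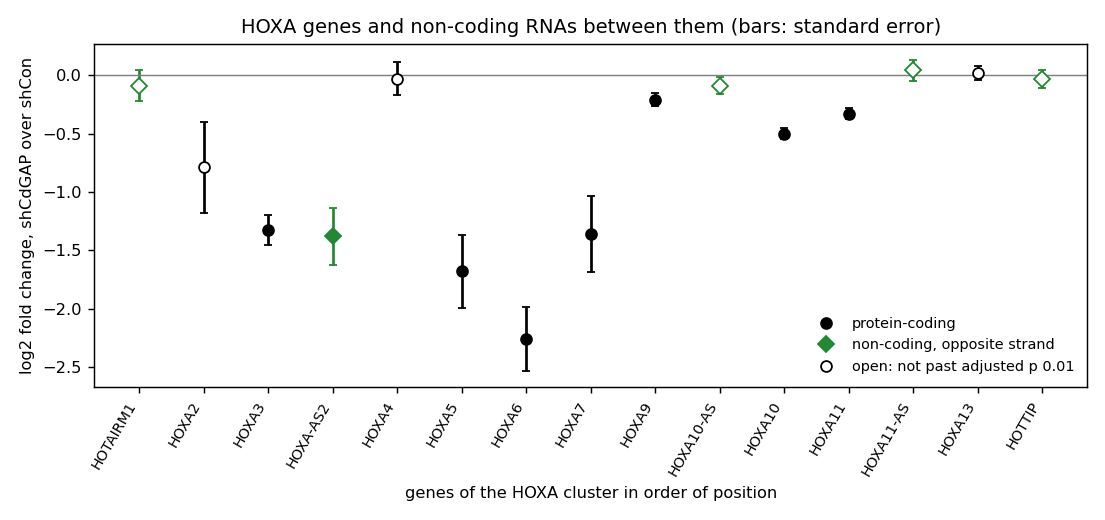
Log2 fold change, shCdGAP over shCon, of tested HOXA genes (circles) and of non-coding RNAs of the opposite strand (diamonds) in order of position, with the standard error as bar. Filled symbols passed an adjusted p under 0.01. The 5 lowest symbols are HOXA6, HOXA5, HOXA-AS2, HOXA7 and HOXA3.

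The HOXB cluster (chromosome 17, 48528526 to 48729178) held both the most abundant HOX gene and the one with the largest decrease. HOXB9, which with its paralogs patterns the ribs and supports mammary gland growth, had 218, 228 and 202 reads in shCon libraries and 3, 50 and 4 reads in shCdGAP libraries. Against the shCon mean this was 1.33%, 20.6% and 2.09% in shCdGAP replicates 1, 2 and 3, so all 3 were low but replicate 2 was far above the others. The log2 fold change was -3.54 (SE 0.649, adjusted p = 0.00380), 11.7-fold lower. Without shCdGAP replicate 2 it was -5.85 (adjusted p = 3.82e-22), 57.7-fold lower, in a fit where 60% of all tested genes passed. HOXB9 had 1 shCdGAP library and 3 shCon libraries over the read limit of the filter, so a low shCdGAP level could not remove it. It lost its call in 5 of 11 alternatives, with adjusted p up to 0.0343. Leaving out shCon replicate 1, 2 or 3 gave adjusted p of 0.0152, 0.0143 and 0.0135, with log2 fold changes near the value above.

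HOXB13 had 311, 304 and 302 CPM in shCon libraries and 267, 339 and 265 CPM in shCdGAP libraries. The groups overlapped, and the log2 fold change was -0.08 (SE 0.0914, adjusted p = 0.499). Without shCdGAP replicate 2 it was -0.21 (adjusted p = 1.99e-09), in a fit where 60% of all tested genes passed. HOXB6, whose shCon libraries had 2.07, 2.37 and 2.57 CPM, had 1.23, 2.18 and 1.6 CPM in shCdGAP libraries. Replicate 2 lay within the shCon range, and the log2 fold change of -0.47 did not pass the test (adjusted p = 0.0816). HOXB3 and HOXB5 had log2 fold changes of -0.81 and -0.68 and did not pass either (adjusted p = 0.162 and 0.0921). HOXB1, HOXB2, HOXB4, HOXB7 and HOXB8 had too few reads, of which HOXB2 had 10, 17 and 5 in shCon libraries and 1, 8 and 0 in shCdGAP libraries. Summed per length, HOXB1 to HOXB9 had 3.80 ± 0.241 RPKM in shCon cells and 1.17 ± 0.617 RPKM in shCdGAP cells.

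HOXB9 and HOXB13 are separated by 98.4 kb that holds PRAC1 and PRAC2, small genes named for their expression in prostate, rectum and colon. They are named here after their values were seen. PRAC1 had 1647, 1784 and 1363 reads in shCon libraries and 561, 1032 and 519 reads in shCdGAP libraries, a decrease of 56.9% (adjusted p = 0.00207) that did not pass without the filter on low counts (adjusted p = 0.0268). PRAC2 had 121, 124 and 119 reads in shCon libraries and 219, 240 and 165 reads in shCdGAP libraries, an increase of 67.7% (adjusted p = 0.00079). Within this interval next to HOXB13, which did not pass the test, neighbouring genes thus changed in opposite directions.

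**Figure D4:**
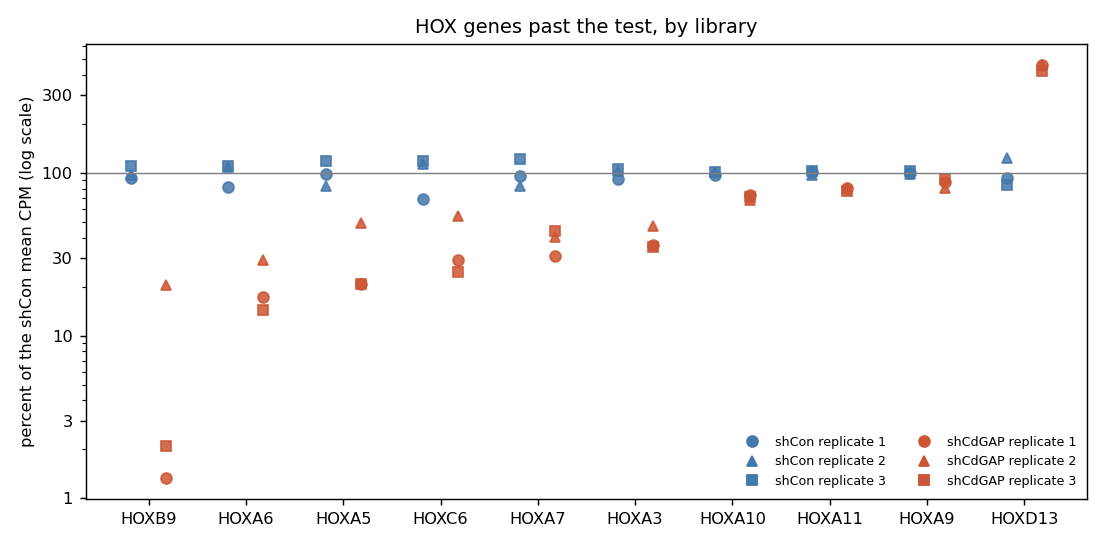
CPM of the 10 HOX genes past the test in each library, as a percent of the shCon mean (log axis). Blue symbols are shCon and red symbols shCdGAP, with the symbol shape giving the replicate. shCdGAP replicate 2 (red triangles) is above the other shCdGAP libraries for HOXB9, HOXA6, HOXA5, HOXC6 and HOXA3, and HOXD13 lies above 400% in all 3 shCdGAP libraries.

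The HOXC cluster (chromosome 12, 53938765 to 54056030) was nearly silent, and its few reads were fewer in CdGAP-depleted cells. All 9 genes together had 38 to 54 reads in shCon libraries and 6 to 21 reads in shCdGAP libraries. HOXC6, which is often raised in prostate tumors, was the 1 gene tested. It had 17, 28 and 23 reads in shCon libraries and 7, 14 and 5 reads in shCdGAP libraries, a log2 fold change of -1.40 (SE 0.367, adjusted p = 0.00944). With 1 shCdGAP library and 3 shCon libraries over the read limit of the filter, a low shCdGAP level could not remove it. The groups did not overlap, yet HOXC6 lost its call in 6 of 11 alternatives, with adjusted p up to 0.0397, among them those without shCdGAP replicate 1 or 3 and without shCon replicate 2 or 3. HOXC8 was kept out by the filter with 17, 22 and 8 reads in shCon libraries against 1, 5 and 0 in shCdGAP libraries. Without the filter its log2 fold change was -2.90 (adjusted p = 1.2e-06). Adjusted p of that fit cannot be set beside those of the main fit. For HOXA3 it was 3.75e-28 in place of 2.74e-05, and for HOXB9 0.0343 in place of 0.0038. HOTAIR, the non-coding RNA of this cluster, had no reads in any library.

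The HOXD cluster (chromosome 2, 176092891 to 176190907) held the HOX gene that rose. HOXD13, which patterns digits and the lower urogenital tract, had 21, 28 and 15 reads in shCon libraries and 101, 108 and 78 reads in shCdGAP libraries. In shCdGAP replicates 1, 2 and 3 this was 462%, 460% and 421% of the shCon mean, so the shCdGAP libraries lay close together and well above the controls. The log2 fold change was 2.14 (SE 0.181, adjusted p = 1.24e-05), 4.42-fold higher. Its level per length nevertheless stayed far below that of its paralogs HOXA13 and HOXB13. The posterior genes beside it, HOXD9 to HOXD12, had between 0 and 3 reads in every library.

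At the 3′ end of the cluster HOXD1 had 24, 22 and 21 reads in shCon libraries and 34, 66 and 26 reads in shCdGAP libraries. The groups did not overlap, but the log2 fold change of 0.87 (SE 0.301) did not pass the threshold (adjusted p = 0.0327). Antisense RNAs overlap 57.4% of its exonic bases. HAGLR, the antisense RNA next to HOXD1, rose from 150, 133 and 123 reads in shCon libraries to 218, 366 and 193 reads in shCdGAP libraries (log2 fold change 0.90, SE 0.182, adjusted p = 0.00252). Without shCon replicate 1, 2 or 3 its adjusted p lay between 0.0101 and 0.0155 and did not pass. HOXD3, HOXD4 and HOXD8 did not pass the test, with log2 fold changes of 0.24, -0.33 and -0.40. Of the exonic bases of HOXD3 and HOXD4, 62.2% and 80.5% are shared with another gene of the same strand, so their counts cover only part of each gene. The HOXD sum per length was 1.33 ± 0.141 RPKM in shCon cells and 2.26 ± 0.202 RPKM in shCdGAP cells.

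By position along the clusters, 1 of 6 tested anterior genes, 4 of 9 central genes and 5 of 7 posterior genes passed the test. These shares were 16.7%, 44.4% and 71.4%, beside 46.2% of all tested genes. The anterior gene was HOXA3, and the central genes HOXA5, HOXA6, HOXA7 and HOXC6 were all lower by more than 2-fold. Of the 5 posterior genes 4 were lower, and HOXD13 was higher. The median log2 fold change was -0.58 for anterior, -0.68 for central and -0.21 for posterior genes. All 9 tested central genes had a fitted value below 0, from -2.26 for HOXA6 to -0.03 for HOXA4, and 5 of them did not pass the test. Of these, HOXA6, HOXA7, HOXC6 and HOXD4 passed the filter with more shCon than shCdGAP libraries over its limit. So did HOXA2 and HOXB3 among anterior genes and HOXB9 among posterior genes. A low shCdGAP level could not remove these genes, so the counts and medians by position favour lower values. By cluster the medians were -0.50 for HOXA, -0.68 for HOXB and 0.24 for HOXD. HOXA9 to HOXA13 and HOXB13 had the most reads and SE under 0.1, while among posterior genes HOXB9 had the largest SE of all tested HOX genes, 0.649. Without shCdGAP replicate 2 the numbers past the test were 2 anterior, 7 central and 6 posterior genes, and 5 in HOXB and 2 in HOXC. Without shCon replicate 2 they were 1, 2 and 3 by position. Posterior genes also numbered 3 without shCon replicate 1 or 3, and central genes 2 without shCdGAP replicate 1 or 3. Differences between clusters or position groups were not tested.

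Among the shCdGAP libraries, replicate 2 lay nearest to the control libraries for many HOX genes. For 6 of the 10 genes past the test it was the shCdGAP library closest to the shCon mean. Among all genes past the test, replicate 2 was the nearest for 40.7%. When it was left out, 23 HOX genes were tested and 15 passed, 14 lower and 1 higher, against 60% of all genes tested in that fit. The added calls were HOXB3 (log2 fold change -1.69, adjusted p = 0.000255), HOXB5 (-1.08, adjusted p = 0.00236), HOXB6 (-0.74, adjusted p = 0.000568), HOXB13 (-0.21) and HOXC8. HOXC8 entered that fit through the shCon libraries alone, with 47 reads in these against 1 in the remaining shCdGAP libraries, a ratio scaled to library size of 30 with an exact 95% interval from 5.14 to 1212 for counting error only. The calls of all 10 genes named above were kept without it.

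HOX proteins bind DNA together with TALE homeodomain cofactors, and 5 of the 9 tested TALE genes passed the test, by less than 2-fold. Of these 4 were lower, PBX2, PBX3 and TGIF2 among them, and TGIF1 was higher, with a list median of -0.26. PBX3 lost its call in 6 of 12 alternatives, among them those without shCdGAP replicate 1 or 3 and without shCon replicate 1 or 2, with adjusted p up to 0.0419. TGIF2, a repressor, was the most abundant of them, at 15.0 RPKM in shCon cells and 9.69 RPKM in shCdGAP cells (log2 fold change -0.63, adjusted p = 1.35e-05). MEIS1, MEIS2 and PKNOX1, of the same list, had log2 fold changes of 0.30, 0.06 and 0.05 and did not pass.

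Of 31 Polycomb genes, all tested, 13 were lower and 4 were higher, with a median of -0.16. Without shCon replicate 1 or 3 the number past the test went from 17 to 11. PCGF5, a subunit of a variant Polycomb repressive complex 1, fell the most, from 6.02 ± 0.0904 RPKM (SD, n = 3) to 1.36 ± 0.234 RPKM (log2 fold change -2.14, adjusted p = 6.24e-07). CBX2, which reads the Polycomb histone mark, fell from 1.08 to 0.446 RPKM (log2 fold change -1.28, adjusted p = 1.11e-05). PHC2 was the most abundant, at 54.6 RPKM in both groups. Of the core of Polycomb repressive complex 2, EZH2, EED and SUZ12 were each lower, with log2 fold changes of -0.34, -0.49 and -0.16, though SUZ12 did not pass when any 1 shCon library was left out (adjusted p up to 0.0390). BMI1, a subunit of canonical Polycomb repressive complex 1, was higher at 0.86.

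Of 20 tested Trithorax and histone demethylase genes, 6 were lower and 4 were higher, with a median of -0.06 and no change above 2-fold. WDR5, a subunit shared by the Trithorax methyltransferases, went from 49.9 to 28.9 RPKM (log2 fold change -0.79, adjusted p = 5.06e-07). KMT2C, one of these methyltransferases, was higher at 0.72, and MLLT1, a reader of acetylated histones, was the most abundant at 51.1 RPKM in shCon cells and 48.9 RPKM in shCdGAP cells without passing.

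The list of retinoic acid pathway and CDX genes had the widest spread of the 4 regulator lists, with 5 lower and 5 higher genes among 13 tested and a median of 0.05. STRA6, the receptor through which cells take up retinol, rose from 0.154 ± 0.0131 to 1.57 ± 0.124 RPKM (SD, n = 3; log2 fold change 3.35, adjusted p = 6.53e-08). CYP26B1, which degrades retinoic acid, was also higher (adjusted p = 0.0005) and passed the filter through shCdGAP libraries alone. It had 1, 2 and 1 reads in shCon libraries and 10, 16 and 16 in shCdGAP libraries, a scaled ratio of 10.4 with an exact 95% interval from 3.77 to 39.9 for counting error only. CRABP1, which binds retinoic acid in the cytoplasm, and ALDH1A2, which makes it, fell, with log2 fold changes of -1.94 and -1.86. CRABP1 had 34, 34 and 31 reads in shCon libraries and 9, 11 and 6 in shCdGAP libraries. It passed the filter through the shCon libraries, so a low shCdGAP level could not remove it. ALDH1A3, another enzyme that makes retinoic acid, was the most abundant of the list and rose from 188 ± 7.84 to 372 ± 90.6 RPKM (log2 fold change 0.99, adjusted p = 0.00529). It kept its call in 5 of 12 alternatives, and of the fits without 1 library it passed only in that without shCdGAP replicate 2. CDX1, CDX2 and CDX4, homeodomain activators of HOX clusters, were listed at 0 in all libraries. The share past the test was 55.6% in the TALE list, 54.8% in Polycomb, 50% in Trithorax and 76.9% in the retinoid list, beside the 46.2% of all tested genes given above.

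**Figure D5:**
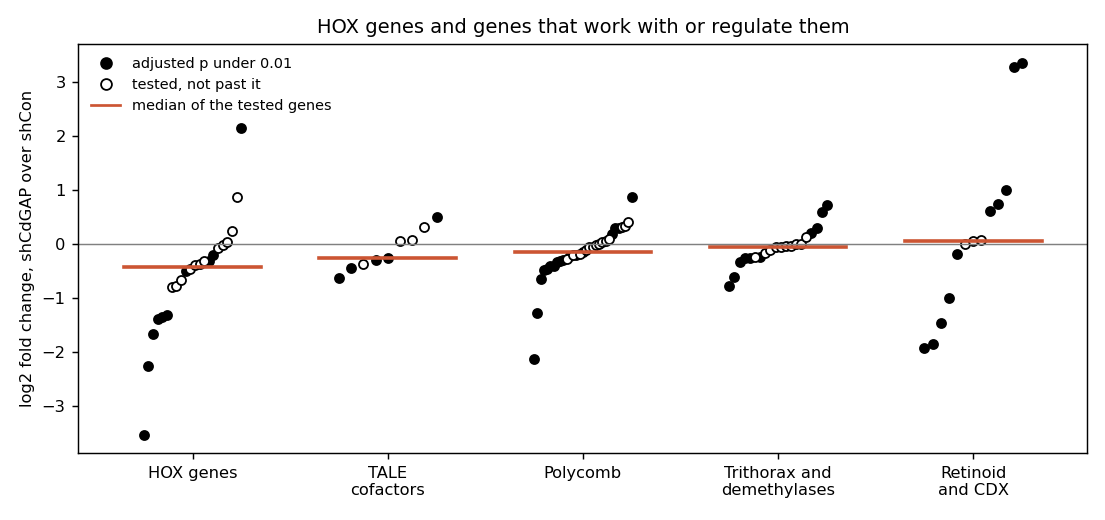
Log2 fold changes, shCdGAP over shCon, of tested genes in the HOX set and in the 4 lists of cofactors and regulators, sorted within each. Filled points passed an adjusted p under 0.01, and red lines mark medians, from -0.44 for HOX genes to 0.05 for the retinoid and CDX list.

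Genes flanking the clusters gave a measure of the surrounding chromosome. Of 139 genes other than HOX within 500 kb outside the clusters, 39 were tested, and 10 were lower and 12 were higher, and their median on the log2 scale was 0.05. The share past the test was 56.4%, beside 46.2% of all tested genes, of which 22.0% were lower and 24.1% higher. Beside HOXA, where 7 HOX genes fell, 2 of 3 tested flanking genes were higher and the other did not pass. Beside HOXB 4 flanking genes were lower and 4 were higher, beside HOXC 6 were lower and 5 higher, and beside HOXD 1 of 6 was higher. B4GALNT2, a glycosyltransferase, passed the filter through shCdGAP libraries alone, with 1, 3 and 1 reads in shCon libraries and 56, 48 and 43 in shCdGAP libraries, a scaled ratio of 29.1 with an exact 95% interval from 12.2 to 90.9 for counting error only. The other large fitted log2 fold changes past the test were those of PHOSPHO1, a phosphatase of bone mineralization (2.72), IGF2BP1, an RNA-binding protein (-2.71), and ITGA5, a fibronectin receptor subunit (2.27). PHOSPHO1 had 10, 15 and 11 reads in shCon libraries and 65, 99 and 77 in shCdGAP libraries. For IGF2BP1 these were 71, 53 and 40 against 9, 11 and 5. A low level in 1 group could not remove PHOSPHO1 or IGF2BP1 by the filter. The most abundant flanking gene was HNRNPA1, which binds RNA, at 174 RPKM in shCon cells and 134 RPKM in shCdGAP cells (log2 fold change -0.38, adjusted p = 1.61e-05).

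Markers of other cell types were read beside these results. Of 5 fibroblast markers, COL1A1, LUM and PDGFRA were higher in shCdGAP cells (PDGFRA not without any 1 shCon library, adjusted p up to 0.0163). COL1A2, the most abundant of them, did not pass (log2 fold change -0.04, adjusted p = 0.356), and DCN had too few reads to be tested. LUM had 11, 9 and 6 reads in shCon libraries and 72, 91 and 52 in shCdGAP libraries, so a low shCon level could not remove it by the filter. The summed list was at 302 to 308 CPM in shCon libraries and 340 to 361 CPM in shCdGAP libraries. The 4 leukocyte markers summed to 0.544 to 0.687 CPM in shCon libraries and 1.4 to 1.55 CPM in shCdGAP libraries. CD68, the 1 of them tested, was higher (log2 fold change 1.55, adjusted p = 0.000153). It shares 81.7% of its exonic bases with another gene of its strand. CD14 had 4 to 11 reads in each library, PTPRC had 0 to 1, and CD3E had no reads. The 3 endothelial markers summed to 5.68 to 5.84 and 2.44 to 6.06 CPM. The epithelial list summed to 741 to 762 CPM in shCon libraries and 971 to 1225 CPM in shCdGAP libraries. In it KRT19 and EPCAM were higher, and KRT8, KRT18 and CDH1 did not pass. CDH1 was fitted lower (log2 fold change -0.72, adjusted p = 0.0636). Of the prostate lineage markers, FOXA1 was lower in shCdGAP cells (log2 fold change -0.55). In bulk RNA, fewer cells with a gene on and less RNA per cell cannot be told apart, and the part of these marker differences in the HOX results was not tested.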

How the data were processed

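RNA of 3 shCdGAP and 3 shCon PC-3 samples was analysed, grouped by the treatment label, and the methods name 3 independent samples per group. The authors aligned reads to GRCh38 with STAR 2.5.1b and deposited unnormalized gene counts. Per the file headers, featureCounts 1.6.0 counted pairs by strand against Ensembl release 77, whereas the methods name version 1.4.6 and a single-read kit. Such counting leaves out reads shared by overlapping genes of 1 strand and reads with several alignments. The deposited gene length, in bases, was used for RPKM.

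Members and gene lists were chosen with earlier results of these data known. Symbols were taken from a name table, which matched 56105 gene IDs. Of the 64253 genes, 32955 had no reads and 16439 were kept by the filter and fitted. In R 4.3.3, edgeR 4.0.16 was run with filterByExpr, TMM and the robust quasi-likelihood F test, with Benjamini-Hochberg adjustment over the fitted genes and thresholds of 0.01 on the adjusted p and, where stated, 1 on the absolute log2 fold change. CPM values use TMM-scaled library sizes, whose factors lay between 0.987 and 1.01. The standard error was the log2 fold change divided by the root of the F statistic. The scripts were tested on simulated counts. Same-numbered libraries deviated together only weakly, with correlations from 0.0306 to 0.0499, so no pairing was used.

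Values by library were given for HOX genes past the test and for the 10 with the highest mean RPKM. Of other lists, up to 4 genes past both thresholds with the largest changes and the most abundant gene were named, and the few others named were chosen after their values were seen. Alternatives were DESeq2 1.42.0, RLE or library-size scaling, other filters, the replicate block, each library left out, an adjusted p under 0.05, and lengths of unshared exonic bases. Promoters came from a RefSeq table (GRCh38.p14). The HOX antisense list matched 18 of its 19 symbols. p-values measure the spread between these samples, and the shCdGAP samples may come from 1 clone. Some genes are not reported here by name, and counts over lists include them.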

Additional observations from a re-analysis of the deposited data

How the results depend on the processing

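HOXA3, HOXA5, HOXA6, HOXA10, HOXA11 and HOXD13 passed an adjusted p under 0.01 in every alternative in which they were tested, with log2 fold changes of HOXD13 between 2.03 and 2.32. No filter on low counts gave 2 higher HOX genes, with 2 past the test in HOXC, 2 in HOXD and 3 among anterior genes. Requiring at least 10 reads in every library, which removes low genes by construction, left 4 lower HOX genes, 3 past the fold limit, 4 past the test in HOXA, 0 in HOXB, 0 in HOXC, 1 central and 3 posterior. Library size alone gave 0 in HOXC, and an adjusted p under 0.05 gave 2 higher genes. With unshared exonic lengths the HOXB13 share in shCon was 50.9%.

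Leaving out 1 library in turn gave 5 to 14 lower HOX genes, 1 to 1 higher, 4 to 10 past the fold limit, 5 to 7 in HOXA, 0 to 5 in HOXB, 0 to 2 in HOXC and 1 to 1 in HOXD. By position it gave 1 to 2 anterior, 2 to 7 central and 3 to 6 posterior genes. It gave 11 to 23 Polycomb, 7 to 11 retinoid and CDX, 4 to 5 TALE, 8 to 13 Trithorax, 1 to 2 HOX non-coding and 16 to 23 flanking genes. The log2 fold change of HOXA4 ran from -0.08 to 0.02, above 0 without shCdGAP replicate 3, and that of HOXA13 from -0.06 to 0.06, at -0.06 without shCdGAP replicate 2 and -0.00 without shCon replicate 2. The cause of these moves was not tested.

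Deviations of same-numbered libraries correlated at 0.0306, 0.0499 and 0.0469, and each library correlated best with its own number. The replicate block gave 7 lower and 1 higher HOX genes, with 0 in HOXB, and adjusted p of 0.0114 for HOXA7 and 0.0133 for HOXB9, the HOX calls it ended. It also ended those of PBX3, SUZ12 and ALDH1A3. Depth limits the HOXC and HOXD genes, most of which had under 10 reads.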
